A study of Homo sapiens with 4 samples.

Results

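The mRNAs described here encode 10 proteins that the anaphase-promoting complex (APC/C) marks for destruction during mitosis. They are the cyclins B1, B2 and A2 (CCNB1, CCNB2, CCNA2), securin (PTTG1), geminin (GMNN), the kinases Aurora A, Aurora B, PLK1 and NEK2 (AURKA, AURKB, PLK1, NEK2) and the spindle protein TPX2. They were picked by gene symbol as well-known substrates, and all 10 were found among the 62696 gene rows. The cells were OVCAR3, an established line of human high-grade serous ovarian carcinoma, grown in RPMI medium with serum. Total RNA, depleted of ribosomal RNA, was sequenced from cells with a short hairpin knockdown of the pseudogene ANAPC1P2 (KD, n = 3 libraries, KD 1, 2 and 3) and from wild-type cells without it (WT, n = 1 library). ANAPC1P2 is a copy of the gene for the largest APC/C subunit. The labels name no library with a non-targeting hairpin, so the effect of carrying any hairpin and that of this knockdown cannot be told apart. The labels also do not say whether the KD sets were separate cultures, hairpins or clones, so the p-values rest on a spread between libraries that may be purely technical.

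The APC/C is a ubiquitin ligase that joins ubiquitin chains to proteins so that the proteasome degrades them. With its coactivator CDC20 it destroys cyclin B and securin once all chromosomes are attached, which lets sister chromatids part and cells leave mitosis. With the coactivator FZR1 it goes on to remove Aurora kinases, PLK1 and TPX2 and keeps them low in G1. The mRNAs of most of these proteins, though not of all, are themselves made mainly in G2 and M, under the DREAM and MuvB complexes with MYBL2 and FOXM1, the CHR promoter element and NF-Y bound to CCAAT boxes. RNA levels say nothing of protein destruction, which was not measured here. In bulk RNA, a larger share of dividing cells and more mRNA per dividing cell cannot be told apart.

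Promoter sequences of 8 of the 10 genes were found in the RefSeq promoter table (GRCh38.p14). AURKA and TPX2 were not matched. The 250 bases before each start were searched on both strands for the CCAAT box (CCAAT or ATTGG) and for the CHR element (TTTGAA, its reverse complement TTCAAA, or TTCGAA). All 8 genes had a CCAAT box before at least 1 of their listed starts, as did 41.5% of 11596 tested protein-coding genes with a promoter in the table and 32.0% of all 35116 promoters. CCNB2 and PLK1 had a CHR element of the searched forms, in both cases with its first base 29 bases before the start. Other forms were not searched, so the remaining genes cannot be said to lack a CHR element. A CHR element was found for 14.2% of those coding genes and in 14.3% of all promoters, and both motifs together for 5.61% and in 5.05%. CCNB1, CCNB2 and NEK2 had CCAAT boxes on 1 strand at a spacing of 31 to 35 bases, a feature chosen after the sequences were seen, which 1.86% of those coding genes and 1.0% of all promoters had. The 5 stretches below are shown for these motifs, because they are the sequences on which regulators shared by these genes are known to act. Each is taken from the 130 bases before the RefSeq start and ends where the first protein-coding transcript of GENCODE 29 begins, which in all 5 genes lies upstream of the RefSeq start. The CHR elements found, and the CCAAT box of CCNB2 nearest its RefSeq start, therefore fall within annotated first exons and are not printed. A non-coding transcript of PLK1 runs through its whole stretch. The stretches read 5′ to 3′ on the gene's strand, with CCAAT boxes in capitals (in PTTG1 a CCAAT and an ATTGG overlap).
CCNB2 (chr15:59105016-59105077, plus strand): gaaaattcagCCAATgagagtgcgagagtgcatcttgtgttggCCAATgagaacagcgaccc
PLK1 (chr16:23678759-23678821, plus strand): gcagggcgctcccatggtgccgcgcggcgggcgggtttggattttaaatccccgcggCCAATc
NEK2 (chr1:211675631-211675751, minus strand): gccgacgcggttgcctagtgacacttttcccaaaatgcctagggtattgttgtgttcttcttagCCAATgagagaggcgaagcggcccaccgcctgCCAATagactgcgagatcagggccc
CCNA2 (chr4:121823934-121824013, minus strand): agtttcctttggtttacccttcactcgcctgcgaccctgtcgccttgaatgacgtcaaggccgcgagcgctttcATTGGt
PTTG1 (chr5:160421725-160421821, plus strand): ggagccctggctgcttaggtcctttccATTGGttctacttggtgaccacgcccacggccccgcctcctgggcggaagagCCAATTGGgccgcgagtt
In AURKB the same CCAAT box lay 129 and 153 bases before its 2 listed starts. These matches are letters in a window and no measure of binding.

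In the libraries, 42871815 to 56216398 reads were counted in genes in KD and 27868718 in WT. The targeted ANAPC1P2 had 0, 11 and 8 reads in KD 1, 2 and 3 and 14 in WT under ENSG00000285793 and 0 in all 4 libraries under ENSG00000231259, so these counts are too few to check the knockdown. Marker transcripts of cell types that the labels do not name were mostly higher in WT. VWF (78.9 to 94.8 normalized counts in KD and 58.9 in WT) and RBFOX3 (125 to 142 and 108) went the other way, uncalled. So did DCN (3.11 to 7.58 and 0), which was too low to be tested. Of 8 erythroid markers, 5 passed the expression filter and all 5 fell, with a summed level of 1.55 to 3.79 normalized counts in KD and 14870 in WT, and HBB, HBA1, HBA2, HBD, SLC4A1 and AHSP were at 0 in KD. Of 11 leukocyte markers 8 were tested and 8 fell (summed level 108 to 135 in KD and 1432 in WT; LYZ, FCGR3B and ITGAM at 0 in KD), and of 10 neural markers 8 were tested and 5 fell (258 to 282 and 3623, of which NEUROD6 made 2374; NEUROD6 and NEFL at 0 in KD, RBFOX3 not called). Fibroblast markers (2 of 7 tested fell, 555 to 654 against 1224, COL3A1 at 0 in KD and DCN at 0 in WT) and endothelial markers (1 of 5 fell, or 4 of 5 with equal library totals, 252 to 346 against 480, none at 0) differed by smaller factors in their sums. With equal totals 53.6% of all tested genes were called lower. The filter asked for a mean of 10 normalized counts over the 4 libraries. The 5 tested erythroid genes, LYZ, FCGR3B, CD3E, NEUROD6, GRIN2A, SNAP25 and CLDN5 had KD means under 10. They could pass only with a higher WT value, so their fall was fixed in advance. All 10 ovarian carcinoma markers were detected in every library. Among them 6 rose and 3 fell, with a summed level of 105860 to 118530 in KD and 556590 in WT, of which MUC16 made 458890. The part of these other transcripts in the results below was not tested, and the only WT library cannot be left out.

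Transcripts of 9 of the 10 substrates were higher in KD, by 2.61-fold (TPX2) to 5.93-fold (CCNA2), and AURKB stood apart at 1.15-fold. The test was limma-trend on log2(normalized count + 1) over the 23344 genes that averaged 10 or more normalized counts. P-values were adjusted by the Benjamini-Hochberg method, those under 0.05 were called, and differences are KD minus WT on that scale. All 10 genes passed that filter, 9 were called higher and 0 lower. The background was high: 31.4% of all tested genes were called higher and 36.3% lower, and among the 14464 protein-coding ones 45.9% were called higher and 24.7% lower. The median log2 difference was 2.13 for the 10 genes, -0.28 over all tested genes and 0.28 over protein-coding ones. With equal library totals 9 of the 10 were still called higher and AURKB was called lower, against 20.3% and 53.6% of all tested genes. On the recovered reads edgeR and DESeq2 also called 9 of the 10 higher, beside 31.7% and 29.6% higher and 39.7% and 30.3% lower over all tested genes. In all 10 genes every KD library lay above WT, which held for 40.0% of all tested and 55.7% of protein-coding genes. With equal totals this was so for 9 of the 10, all but AURKB, beside 26.9% and 37.7%. None of these shares is matched for exonic length or level, both of which moved with the difference, as given below. In RPM, reads scaled to equal library totals, the 10 genes together took 1669, 1575 and 1712 RPM in KD 1, 2 and 3 and 654.5 RPM in WT, a 2.52-fold difference.

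**Figure D1:**
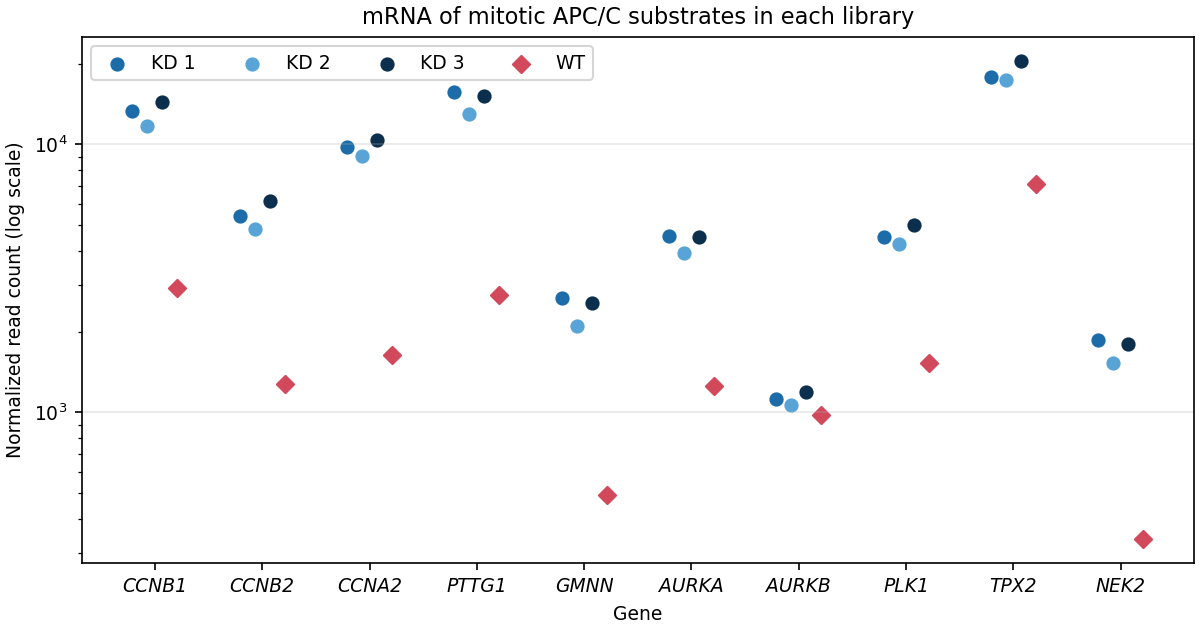
Normalized read counts (log scale) of the 10 genes in each library, with KD 1, 2 and 3 as blue circles and WT as red diamonds. The KD points lie above WT for every gene, and the gap is smallest for AURKB (1066 to 1191 against 979).

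The mitotic cyclins activate CDK1 and CDK2 and are destroyed in order, cyclin A2 from prometaphase on and the B cyclins at metaphase. CCNA2 (chromosome 4, 121816444 to 121823933, minus strand; all gene positions are GENCODE 29 on GRCh38) had 9788, 9005 and 10340 normalized counts in KD 1, 2 and 3 and 1637 in WT. The KD libraries lay close together and far above WT, and the log2 difference of 2.57 (SE 0.11, limma adjusted p = 6.57e-05) was the largest of the 10. EXOSC9, an exosome gene on the opposite strand, overlaps CCNA2 by 578 bases and was itself higher in KD (2905 to 3601 against 985). The library kit keeps the strand, but the sources used here do not give the strand setting of the counting, so reads of the overlap may have been counted for either gene.

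CCNB1 (chromosome 5, 69167010 to 69178245, plus strand), the main partner of CDK1 at entry into mitosis, had 13297, 11701 and 14350 normalized counts in KD and 2903 in WT. CCNB2 (chromosome 15, 59105078 to 59125045, plus strand), a B cyclin found largely at the Golgi, had 5387, 4848 and 6136 in KD and 1281 in WT. The KD and WT values of neither gene overlapped. Their log2 differences were nearly equal, at 2.17 (SE 0.14) for CCNB1 and 2.08 (SE 0.14) for CCNB2, with limma adjusted p = 7.25e-05 and 8.19e-05. The CCNB1 to CCNB2 ratio within a library was 2.34 to 2.47 in KD and 2.27 in WT. Genes that overlap CCNB2 in the annotation had at most 72.2 normalized counts in any library.

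Securin holds the protease separase inactive until anaphase, and geminin holds the replication licensing factor CDT1 inactive from S phase to mitosis. PTTG1 (chromosome 5, 160421822 to 160428744, plus strand) had 15664, 12969 and 15191 normalized counts in KD and 2736 in WT, a log2 difference of 2.41 (SE 0.13, limma adjusted p = 6.57e-05). KD 2 was the lowest KD library and still lay well above WT. Retrocopies of PTTG1 were low: PTTG3P had 20 reads in WT and 0 to 6 in KD, PTTG2 had 2 to 14 in KD and 15 in WT, and PTTG4P had 9 to 27 and 90. These are few beside the 2463 or more reads of PTTG1 in each library. AURKAP1, CCNB2P1 and NEK2P4, copies of other genes here, had at most 11 reads in any library, AURKAP2 at most 2 and NEK2P1 at most 1.
GMNN (chromosome 6, 24774931 to 24786099, plus strand) had 2673, 2109 and 2568 normalized counts in KD and 494 in WT, where 445 reads were counted. The groups did not overlap, and the log2 difference was 2.30 (SE 0.15, limma adjusted p = 7.72e-05). Its KD libraries varied the most of the 10 genes, with a coefficient of variation of 12.2%.

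Among the kinases, Aurora A builds the spindle poles with its activator TPX2, PLK1 drives mitotic entry and centrosome maturation, and NEK2 parts the centrosomes. NEK2 (chromosome 1, 211658657 to 211675630, minus strand) had 1861, 1527 and 1798 normalized counts in KD and 338 in WT. This was the lowest WT level of the 10, also after scaling for exonic length (109 per kilobase). Its log2 difference was 2.35 (SE 0.14, limma adjusted p = 6.83e-05). AURKA (chromosome 20, 56369389 to 56392337, minus strand) had 4534, 3947 and 4514 in KD and 1260 in WT, and rose by 1.78 (SE 0.12, limma adjusted p = 7.64e-05) on the log2 scale. Neither kinase had KD values near WT.
PLK1 (chromosome 16, 23677656 to 23690367, plus strand) had 4515, 4257 and 4982 normalized counts in KD and 1523 in WT, a log2 difference of 1.59 (SE 0.12, limma adjusted p = 9.83e-05). TPX2 (chromosome 20, 31739271 to 31801805, plus strand) had 17796, 17387 and 20502 in KD and 7110 in WT, a log2 difference of 1.38 (SE 0.13, limma adjusted p = 2.39e-04). TPX2 had the most counts of the 10 in every library and the smallest rise among the 9 called genes. The 95% intervals of TPX2 (1.06 to 1.70) and CCNA2 (2.29 to 2.84) did not overlap. The difference between these 2 genes was not itself tested.

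AURKB (chromosome 17, 8204733 to 8210600, minus strand) encodes the kinase of the chromosomal passenger complex, which corrects faulty chromosome attachments and acts in cytokinesis. It had 1124, 1066 and 1191 normalized counts in KD and 979 in WT. The 3 KD values lay just above WT, whose own 95% Poisson counting interval was 915 to 1045. The log2 difference of 0.20 (95% interval -0.07 to 0.48) was not called (limma adjusted p = 0.153; 0.192 with edgeR and 0.289 with DESeq2 on the recovered reads). With equal library totals AURKB was lower in KD, at 24.5, 24.4 and 25.0 RPM against 31.6 RPM in WT (log2 difference -0.36, limma adjusted p = 0.0114), and it was also lower with upper-quartile scaling (-0.26, 0.0335), but higher with TMM (0.30, 0.0278) and median-of-ratios scaling (0.48, 0.00962). Its direction therefore depended on the scaling, whereas the other 9 genes were called higher under each of these scalings. Within a library and free of any scaling, the AURKA to AURKB ratio was 4.03, 3.70 and 3.79 in KD 1, 2 and 3 and 1.29 in WT, so AURKA was higher relative to AURKB in every KD library.

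**Figure D2:**
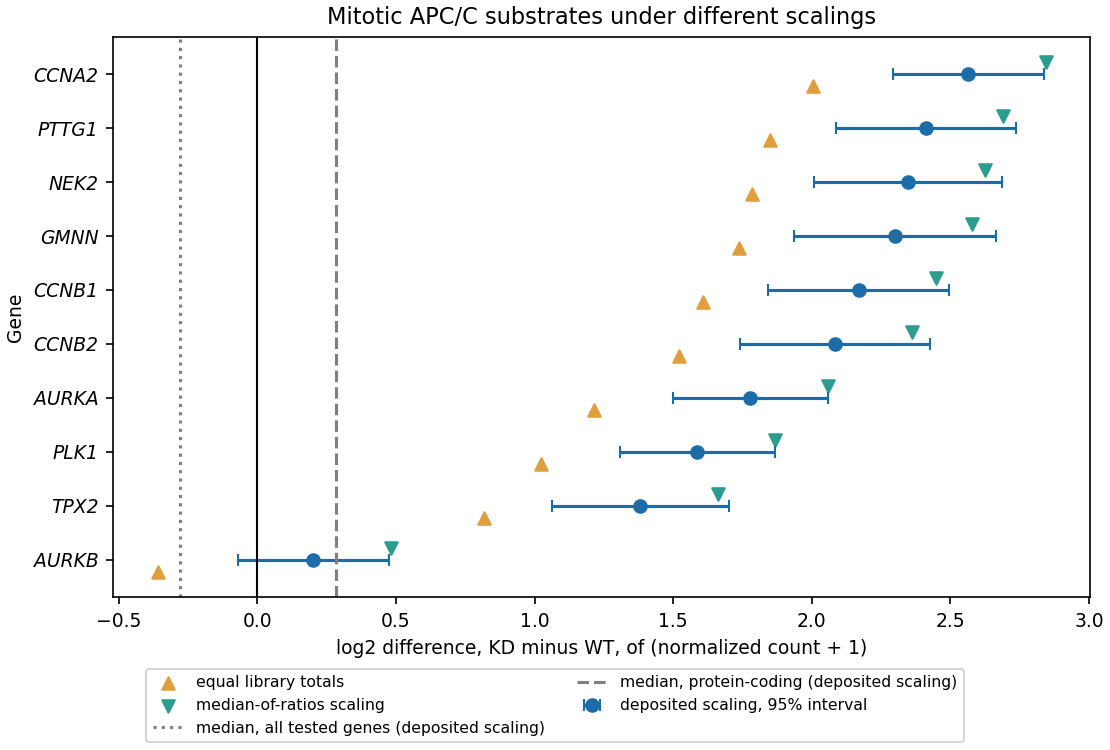
The log2 difference between KD and WT of each gene, with the deposited scaling (circles, bars for the 95% interval of limma), equal library totals (upward triangles) and median-of-ratios scaling (downward triangles); the dotted and dashed lines are the medians of all tested (-0.28) and protein-coding (0.28) genes. The choice of scaling moves all genes together, and the sign changes for AURKB alone among the 10.

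The scaling moved the median of all tested genes, from -0.28 as deposited to -0.84 with equal totals, -0.74 with upper-quartile, -0.18 with TMM and -0.00 with median-of-ratios scaling. The median of the 10 genes lay 2.41 above that of all tested genes and 1.84 above that of protein-coding genes. A scaling shifts all genes nearly alike, so these gaps move little with it by construction and show no stability. Exonic length and level also moved with the difference. Over 5 length bins of protein-coding genes, from the shortest to the longest, the median log2 difference went from 0.73 through 0.51, 0.33 and 0.18 to -0.10. The 10 genes are 2013 to 4760 bases long in exons, and 6 of them fall in the shortest bin, AURKB included. Among 5429 other protein-coding genes within that range of length the median was 0.53, with 52.1% called higher. Among the 1994 of those that also lay within the 10 genes' range of mean level, the median was 1.16 and 85.2% were called higher. The count of 9 in 10 is near that share and is no result about these genes. AURKB lay below the median of those genes and the other 9 above it. The part of length and level in the differences was not tested.

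**Figure D3:**
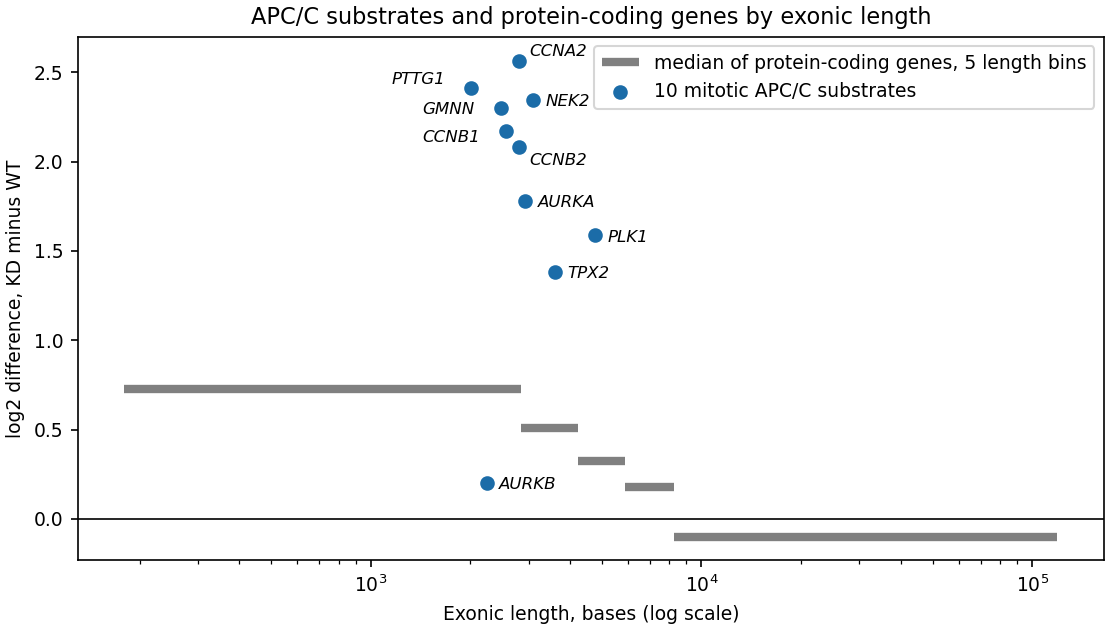
The log2 difference between KD and WT against exonic length (log scale) for the 10 genes (points) and the median of protein-coding genes in 5 bins of length (grey bars). Medians go from 0.73 in the shortest bin to -0.10 in the longest; 9 points lie above the bar of their bin, and AURKB (0.20) below it.

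Levels were next scaled by exonic length, which joins all annotated exons of a gene, those of non-coding transcripts included. It can exceed the length of the mRNA present, so the order of genes is approximate. PLK1, for example, is annotated from 23677656, but its first coding transcript starts at 23678822. On this scale PTTG1 had the highest level in KD, with 7257 ± 715 normalized counts per kilobase (mean ± SD, n = 3). TPX2 (5149 ± 470) and CCNB1 (5127 ± 522) followed and did not differ beyond their spread. CCNA2 (3471 ± 240), CCNB2 (1948 ± 231) and AURKA (1479 ± 114) came next in separate ranges. GMNN (989 ± 121) and PLK1 (963 ± 77.2) overlapped, as did NEK2 (558 ± 57.3) and AURKB (503 ± 27.8) at the lower end. In WT the order began with TPX2 (1972 per kilobase), PTTG1 (1359), CCNB1 (1135), CCNA2 (585) and CCNB2 (457). AURKB was sixth in WT (437 per kilobase), slightly above AURKA (430), and last in KD.

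Among the KD libraries the 10 genes mostly shared the lowest library but not the highest. KD 2 was the lowest of the 3 in all 10 genes with the deposited scaling, which held for 38.5% of all tested and 47.6% of protein-coding genes. With equal totals KD 2 was the lowest in 9 of the 10, against 24.0% and 27.2%, and the exception was TPX2 (388, 398 and 430 RPM in KD 1, 2 and 3). The share among genes matched in length and level was not computed, so these counts are not read as a trait of the 10 genes. KD 1 was the highest for PTTG1, GMNN, AURKA and NEK2, and KD 3 for the other 6, under both scalings. The coefficient of variation over the KD libraries ran from 5.53% (AURKB) to 12.2% (GMNN) with a median of 9.49%, beside a median of 6.42% for 6492 other protein-coding genes in the same range of level.

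Ratios to binding partners and regulators were taken within each library, where scaling cancels. They are given as values, and no test was run on them. A ratio does not remove the trends with exonic length and level described above, and partners were not matched in either. Ratios of the B cyclins to CDK1, their kinase, were alike in both groups: CCNB1 to CDK1 was 1.62, 1.78 and 1.81 in KD and 1.75 in WT, and CCNB2 to CDK1 was 0.657, 0.738 and 0.775 against 0.770. CCNA2 was higher relative to CDK2, its partner in S phase, with a ratio of 3.24 to 3.61 in KD and 1.42 in WT. AURKB and INCENP, the scaffold that activates it, had a ratio of 0.311 to 0.337 in KD and 0.333 in WT. In these pairs WT lay inside the KD range, except for CCNA2 to CDK2.
The inhibitors were higher relative to their targets. PTTG1 to ESPL1 (separase) was 6.20, 4.56 and 5.47 in KD and 0.926 in WT, and ESPL1 itself had 2528 to 2842 normalized counts in KD and 2953 in WT. GMNN to CDT1 was 3.26, 2.63 and 2.69 in KD and 0.879 in WT. In both pairs every KD library lay far above WT.
Of the other kinase pairs, PLK1 to its activator BORA was 6.93 to 9.45 in KD and 5.00 in WT, and AURKA to TPX2 was 0.220 to 0.255 and 0.177. NEK2 to CEP250, the centrosome linker protein that it phosphorylates, was 2.14 to 3.12 in KD and 0.268 in WT. CEP250 was called lower (596 to 826 against 1258, log2 difference -0.83, limma adjusted p = 0.0081, but 0.0976 with no expression filter). 

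**Figure D4:**
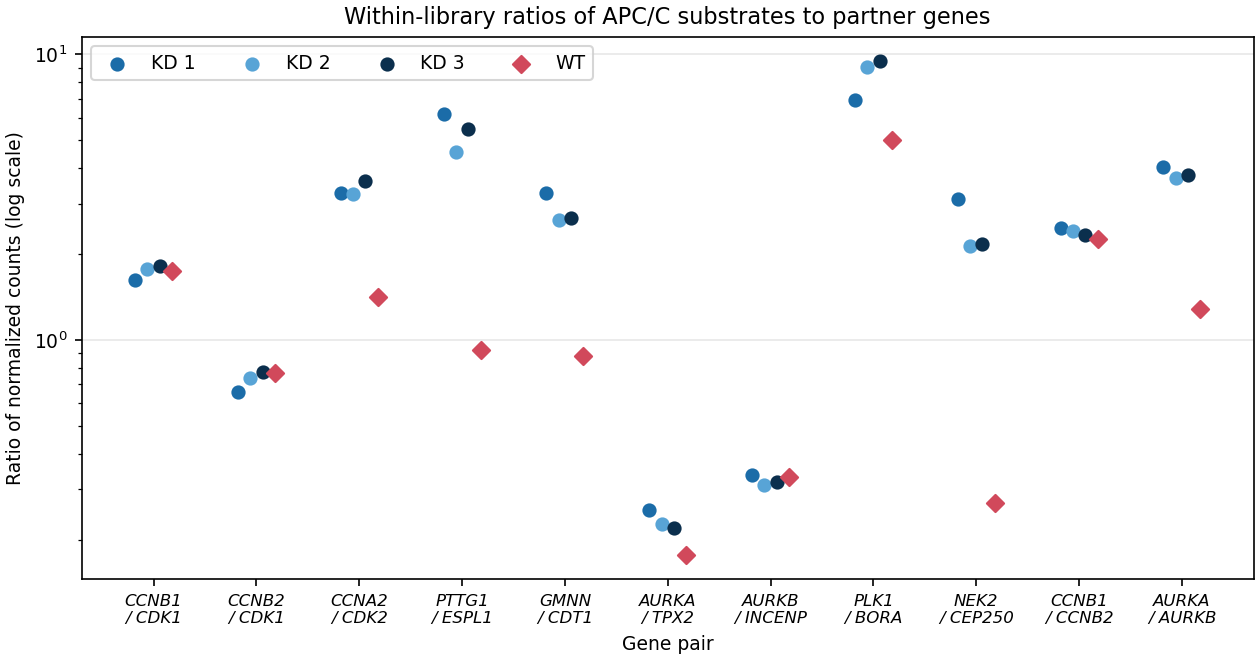
Within-library ratio of normalized counts (log scale) for 11 gene pairs, with KD 1, 2 and 3 as blue circles and WT as red diamonds. WT lies inside the KD range for both B cyclins to CDK1 and for AURKB to INCENP, and below it for the other 8 pairs, most of all for NEK2 to CEP250 (0.268 against 2.14 to 3.12).

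Other genes of the pathway were described by lists. With the deposited scaling, 31.4% of all tested genes, 45.9% of protein-coding genes and 85.2% of the matched genes were called higher. The matched genes are those above, set by the length and level of the 10, and lean toward genes high in KD. The lists themselves were not matched. With equal totals 20.3% of all tested genes were called higher and 53.6% lower. Of the 14464 protein-coding ones, 4314 were then called higher and 6411 lower. No matched share was computed for that scaling. Of 26 other APC/C substrates, 24 rose and 1 fell. Their median log2 difference was 1.42 (21 and 2 with equal totals, median 0.86). The count of 24 with the deposited scaling is near the matched share and is no result about the list. TTK, the spindle checkpoint kinase MPS1, had 6503 to 8389 normalized counts in KD and 1473 in WT (log2 difference 2.37, limma adjusted p = 7.87e-05). USP1, a deubiquitinase of DNA repair, rose by 2.07, and UBE2C, the ubiquitin-conjugating enzyme that starts chains for the APC/C, by 1.97. NUSAP1, which bundles spindle microtubules, fell to 18.9 to 40.4 normalized counts from 116 (log2 difference -1.94, limma adjusted p = 0.0153, but 0.100 with no expression filter). It rested on only 17 to 52 reads in KD and 104 in WT, and how reads shared between genes were counted is not known. CDCA3, a mitotic F-box-like protein, was not called, at 1015 to 1243 in KD and 957 in WT, and like AURKB it was lower with equal totals (-0.37, limma adjusted p = 0.0328) and higher with median-of-ratios scaling (0.47, limma adjusted p = 0.0229).

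Of 8 genes for APC/C coactivators, inhibitors and ubiquitin-conjugating enzymes, 8 rose (7 with equal totals), with a median of 1.73, a count little above the matched share of 85.2%. MAD2L1, the checkpoint protein that holds CDC20 inactive, rose by 3.09, UBE2C by 1.97 and the coactivator CDC20 by 1.91. Some genes stand on more than 1 list, among them UBE2C and CDC20, which are also on the list of substrates, as is FOXM1. The later coactivator FZR1 rose by only 0.46 (1163 to 1345 normalized counts in KD and 903 in WT, limma adjusted p = 0.0154, or 0.0720 with no expression filter) and stood at -0.10 with equal totals. The partners list of 12 genes had 9 higher and 1 lower, with a median of 0.85 (6 and 3 with equal totals, median 0.29), a share of higher genes between those of coding and of matched genes. CDK1 rose by 2.18, BIRC5, the survivin subunit of the passenger complex, by 1.69 and the phosphatase gene CDC25C by 1.45. Of the other passenger complex subunits, CDCA8 rose by 1.22. INCENP was not called (0.25, limma adjusted p = 0.0736), and was called lower with equal totals (-0.31, 0.0155) and higher with TMM (0.35, 0.0109) and median-of-ratios scaling (0.53, 0.00412). Differences between the subunits were not tested.

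Of 16 regulators of G2/M transcription, 14 rose and 0 fell, and the median was 1.08 (10 and 2 with equal totals, median 0.52). This count is near the matched share of 85.2% and the median is below the 1.16 of those genes, so it is no result about the regulators as a group. LIN9, a MuvB subunit, rose most, to 3554 to 4622 normalized counts from 693 (log2 difference 2.54, limma adjusted p = 6.83e-05). NFYB, a subunit of the CCAAT-binding factor NF-Y, rose by 1.85 and the MuvB subunit LIN52 by 1.38. FOXM1 and MYBL2, the activators named above, rose by 1.17 and 1.18. LIN37 (53.6 to 55.9 against 62.2) and TFDP2 (7176 to 8191 against 6923) were not called, and TFDP2 was called lower with equal totals (-0.43) and higher with median-of-ratios scaling (0.41).

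**Figure D5:**
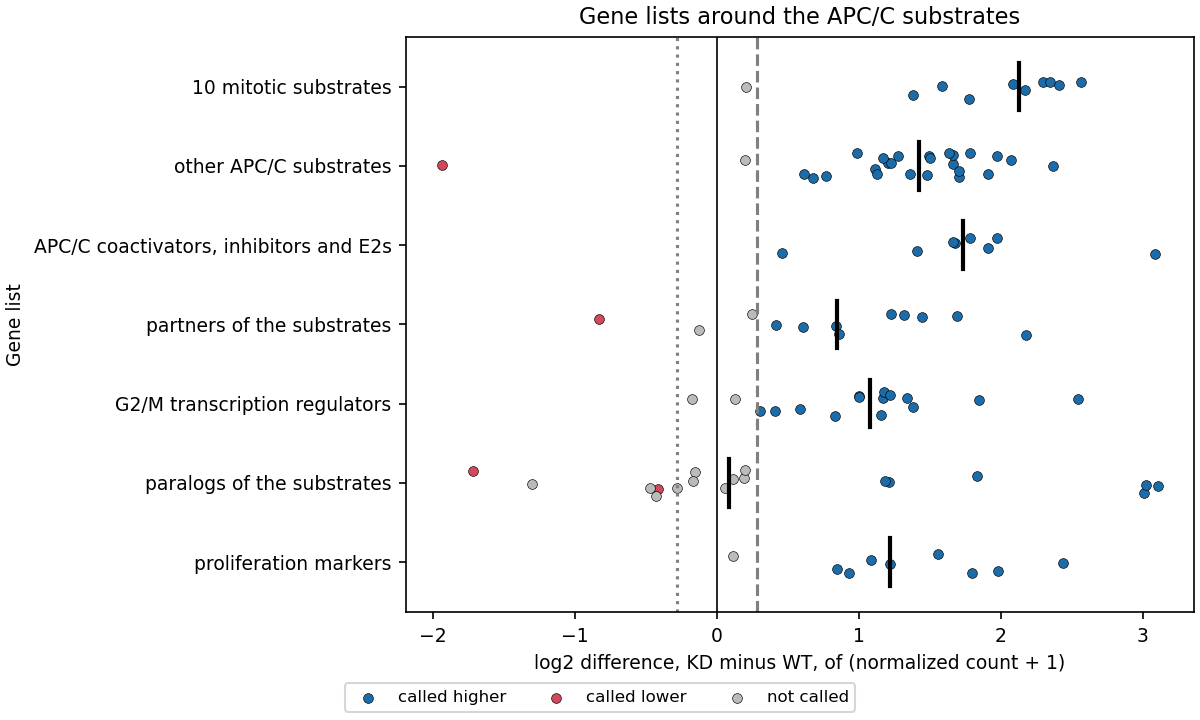
The log2 difference between KD and WT of each tested gene in 7 lists, colored by whether limma called it higher, lower or neither; thick black bars are list medians, and the dotted and dashed lines are the medians of all tested and of protein-coding genes. The 10 mitotic substrates have the highest median (2.13) of these lists, and the paralogs of these genes the lowest (0.09).

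The genes nearest to the mean profile of these 10 over the 4 libraries were then named. Likeness was measured as the Euclidean distance between centred log2 profiles, over 4 libraries and 11714 protein-coding genes averaging 100 or more normalized counts. The 5 genes nearest to the mean profile of the 10 were THAP5 (distance 0.017), TAF9B (0.018), EIF3H (0.019), TMED7 (0.022) and MRPS15 (0.025). EIF3H and MRPS15 encode a translation initiation subunit and a mitochondrial ribosomal protein. Of the 10 genes, AURKA was the nearest to that mean (0.104), with 191 other genes nearer, and AURKB the farthest (1.46). The mean includes AURKB. The 5 named genes had log2 differences of 1.87 to 1.90, below the median of 2.13 for the 10, so they match the average rather than most single genes.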

How the data were processed

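The deposited values are a signal per gene, normalized read counts made by the authors, in 1 file per library. STAR 2.7.11b, featureCounts 2.0.6 and DESeq2 with hg38 are named, per the submitters' processing notes. The sources used here do not give the annotation release, strand setting or treatment of shared reads. Divided by the value of 1 read in its library, 100% of values came out whole (tolerance 0.001), which gave back the reads. limma 3.58.1 (R 4.3.3) was fitted to all 4 libraries. The spread comes from the KD libraries, and the lone WT library is assumed to vary like them. The same threshold was used for all tools. edgeR 4.0.16 and DESeq2 1.42.0 on the recovered reads called 7402 and 6913 genes higher and 9271 and 7079 lower. The code was tested on simulated data. Counting intervals cover counting error only. Lengths and positions came from GENCODE 29, which held 92.9% of the identifiers. A planned search of protein sequences was not run here.

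The 10 genes, the lists and the tests were chosen with earlier results of these data known. Named genes were the 10, their partners in pairs, up to 3 called genes of each list with the largest difference, those called against their list, the 5 nearest profiles and pseudogenes with reads; other genes named (FZR1, FOXM1, MYBL2, CDCA8, EXOSC9 and uncalled ones) were chosen after their values were seen.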

Additional observations from a re-analysis of the deposited data

How the results depend on the processing

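No paired analysis was possible because the only WT library carries no set number. Across 15 alternatives, the 9 genes other than AURKB were called higher under each. The median of the 10 genes was 1.56 with equal library totals, 2.41 with median-of-ratios and 1.66 with upper-quartile scaling, against 2.13 as deposited, and 2.05 to 2.21 with 1 KD library left out. AURKB reversed to -0.36 with equal totals and -0.26 with upper-quartile scaling, and was called higher with TMM (0.30) and median-of-ratios scaling (0.48). The log2 difference of the CCNB1 to CDK1 ratio, -0.0069, ran from -0.038 (without KD 3) to 0.042 (without KD 1). Over all genes, 4746 instead of 7329 were called higher with equal totals, and 5086 and 3710 instead of 8465 were called lower when only genes averaging 50 or more, or only protein-coding ones, entered, where fewer genes were tested. With 1 KD library left out, 6697 to 7055 genes were called higher, 7507 to 8131 lower, 9 of the 10 higher and 24 of the 26 other substrates higher. Depth did not limit the 10 genes, each with at least 304 reads in every library. The lone WT library does: its own spread is unknown.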

Other observations

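Of 18 tested paralogs of the 10 genes, 6 rose and 2 fell. That share of higher genes is close to the 31.4% of all tested genes and below the 45.9% of protein-coding ones. The paralogs' median log2 difference of 0.09 became -0.47 with equal library totals (6 and 8). With that scaling 20.3% of all tested genes were called higher and 53.6% lower. GMNC, a geminin relative that drives multiciliated cell fate, had 168 to 203 normalized counts in KD and 20.0 in WT, NEK7, a kinase of the NEK2 family, 11662 to 14886 against 1629, and CCNA1, the germline A-type cyclin, 1333 to 1963 against 197. Their log2 differences were 3.11, 3.02 and 3.01 (limma adjusted p = 1.56e-04, 6.57e-05 and 8.70e-05), beside 2.30, 2.35 and 2.57 for GMNN, NEK2 and CCNA2. GMNC rested on 18 WT reads. NEK5 fell by 1.72 (limma adjusted p = 0.00429) and NEK9 by 0.42 (0.0147, or 0.257 with median-of-ratios scaling).

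Of 9 proliferation markers, 8 rose and 0 fell (8 and 1 with equal totals), with a median of 1.22. This is near the 85.2% called higher and the median of 1.16 among coding genes matched to the 10 substrates in length and level, and is no result about the markers as a group. PCNA rose by 2.44, TOP2A by 1.98 and MCM6 by 1.80. MKI67, which encodes the Ki-67 antigen, was not called: it had 29558, 32120 and 34364 normalized counts in KD and 29491 in WT (log2 difference 0.12, limma adjusted p = 0.487), and with equal totals it was lower in KD (-0.45, limma adjusted p = 0.0109) and with median-of-ratios scaling higher (0.40, limma adjusted p = 0.0360).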
